A study of Mus musculus with 8 samples.

Results

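The subunits of the oxidative phosphorylation machinery were examined in single chandelier cells (ChC) and parvalbumin cells (Pv) of mouse cortex. They were chosen by name: every gene whose symbol begins with Nduf and a, b, c, s or v with a digit, Uqcr, Cox4 to Cox8, Cyc1, Cycs or Atp5, with Sdha, Sdhb, Sdhc and Sdhd. This rule took 86 of the 23335 gene names in the table. By symbol, 35 belong to complex I, 4 to complex II, 9 to complex III, 1 is cytochrome c, 18 belong to complex IV and 15 to complex V. Ndufa4 and Ndufa4l2 were kept apart, since Ndufa4 was named for complex I and is now counted with complex IV. Atp5s and Atp5sl carry the prefix without being subunits and were counted apart as 2 other names.

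Oxidative phosphorylation passes electrons from NADH (through complex I) and succinate (through complex II) to ubiquinone, on to complex III, by cytochrome c to complex IV and so to oxygen. Complexes I, III and IV move protons across the inner mitochondrial membrane, and complex V, the ATP synthase, makes ATP from their return. Fast-spiking interneurons are known for a high demand for ATP and a high density of mitochondria. The subunits that the mitochondrial genome encodes are not analysed here, since no gene of the table bears an mt- name or lies on the mitochondrial chromosome; all values below are of nuclear genes.

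Each cell was a red fluorescent neuron picked from dissociated frontal cortex of a female mouse, and its polyA RNA was amplified in rounds of linear amplification with a random tag (UMI) on each molecule. ChC came from Nkx2.1-CreER; Ai14 mice given tamoxifen (150 µl of 20 mg/ml) at E17.5 (embryonic day). In this line the Nkx2.1 promoter drives an inducible Cre, so that late progenitors of the medial ganglionic eminence and their offspring turn on the reporter, and the line does not by itself take chandelier cells alone. Pv cells came from Pv-ires-Cre; Ai14 mice, in which the parvalbumin gene drives Cre; the labels give the same tamoxifen text for these mice too, although their genotype has no CreER. ChC batches 1 and 2 came from animal 1 (postnatal day 31) and batches 3 and 4 from animal 2 (day 32), and Pv batches 5 and 6 came from animal 3 (day 29) and batches 7 and 8 from animal 4 (day 35). Each library batch held 16 cells. All ChC batches were on 1 flow cell and all Pv batches on another, so cell type, mouse line, animal and flow cell cannot be told apart. Within a flow cell the lane went with the animal.

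Of 128 cells, 126 had a UMI, 63 of each type. The batches held 527743, 657957, 2898413 and 1307666 UMI (ChC 1 to 4) and 456458, 501563, 370238 and 921212 UMI (Pv 5 to 8), with medians of 28420, 35844, 110044 and 50344 and 26940, 26606, 17416 and 51156 UMI per cell. Levels are on the counts-per-million scale (CPM) of a batch's UMI, with TMM scaling between batches, and shares are a percent of all UMI. They were not divided by transcript length except where CPM per kilobase is named. A UMI counts a tagged molecule whatever its length, so CPM per kilobase does not rank genes by number of molecules. Pvalb, the parvalbumin gene whose promoter marks the Pv line, stood at 141, 173, 88.2 and 73.1 CPM in ChC batches 1 to 4 and 1494, 697, 483 and 996 in Pv batches 5 to 8. Every Pv batch lay above every ChC batch, and the log2 fold change (ChC over Pv) was -2.99 (SE 0.63, edgeR adjusted p = 0.598), with an adjusted p of 0.0254 from DESeq2.

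Several features of the libraries come before the results. Xist, the RNA of the inactive X chromosome, had 48, 223, 2358 and 597 UMI in ChC batches 1 to 4 and 129, 0, 82 and 207 in Pv batches 5 to 8, so batch 6 had none although all mice are labelled female. Gene by gene, UMI scattered over the cells of a batch little more than draws from fixed proportions would, with the most scatter in batch 7: the chi-square per degree of freedom of a member's UMI over the cells of its batch, which is near 1 for such draws, had medians of 1.08, 0.912, 0.997 and 1.08 in ChC batches 1 to 4 and 1.08, 1.32, 1.55 and 1.07 in Pv batches 5 to 8. Other genes, taken where a batch held 100 or more of their UMI, had medians of 1.21, 1.22, 1.09 and 1.18 and 1.2, 1.26, 1.58 and 1.21. When each cell was compared with the summed profile of every batch, leaving the cell itself out, 125 of 126 cells were nearest to the batch of their label. The exception was cell Pv-19, labelled batch 6 and nearest to batch 7, in which 1.18% of UMI fell on members against 2.48 to 2.96% in the other 14 cells of batch 6. Cells were summed and the batch or the animal was the unit, and the cause of this low scatter was not tested. The summed share of the members scattered more, as given below. Whether cells of a batch share molecules or tags could not be told from the counts, which limits all values given by cell.

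Pv cells gave more of their UMI to oxidative phosphorylation subunits than ChC in 3 of 4 Pv batches. All members together took 1.66, 1.59, 1.96 and 1.86% of UMI in ChC batches 1 to 4 and 3.31, 2.74, 1.73 and 3.33% in Pv batches 5 to 8. Batches 5, 6 and 8 lay above all ChC batches, and batch 7 lay inside the ChC range. The means were 1.77% ± 0.17 in ChC and 2.78% ± 0.748 in Pv (SD, n = 4 batches each), a log2 ratio of ChC over Pv of -0.65. Summed by animal, the shares were 1.62 and 1.93% in the ChC animals and 3.01 and 2.87% in the Pv animals, so the 2 animals of each type did not overlap. In the sum of animal 4, batch 8 (921212 UMI) outweighed batch 7 (370238 UMI). The 95% Wilson interval of batch 7, the batch with fewest UMI, was 1.69 to 1.77%, which covers counting error and not the spread between batches. Batch 7 also had the lowest sum of the interneuron markers, at 3987 CPM, and the highest sums of the pyramidal markers, at 1289, and of the endothelial and mural markers, at 162. Among the Pv batches Gad1, Gad2, Slc32a1 and Pvalb were lowest in batch 7, but Lhx6 was highest there, and Nkx2-1 and Erbb4 lay between. The pyramidal sum was mostly Camk2a, at 1006 CPM in batch 7 and 970 in batch 6. The values of all batches are given at the end, and the part of these markers in the share of batch 7 was not tested. Without batch 7 the Pv mean was 3.13%, without batch 6 it was 2.79%, and without batch 3 the ChC mean was 1.7%. No test was made of these sums, since the members were chosen with results known.

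**Figure D1:**
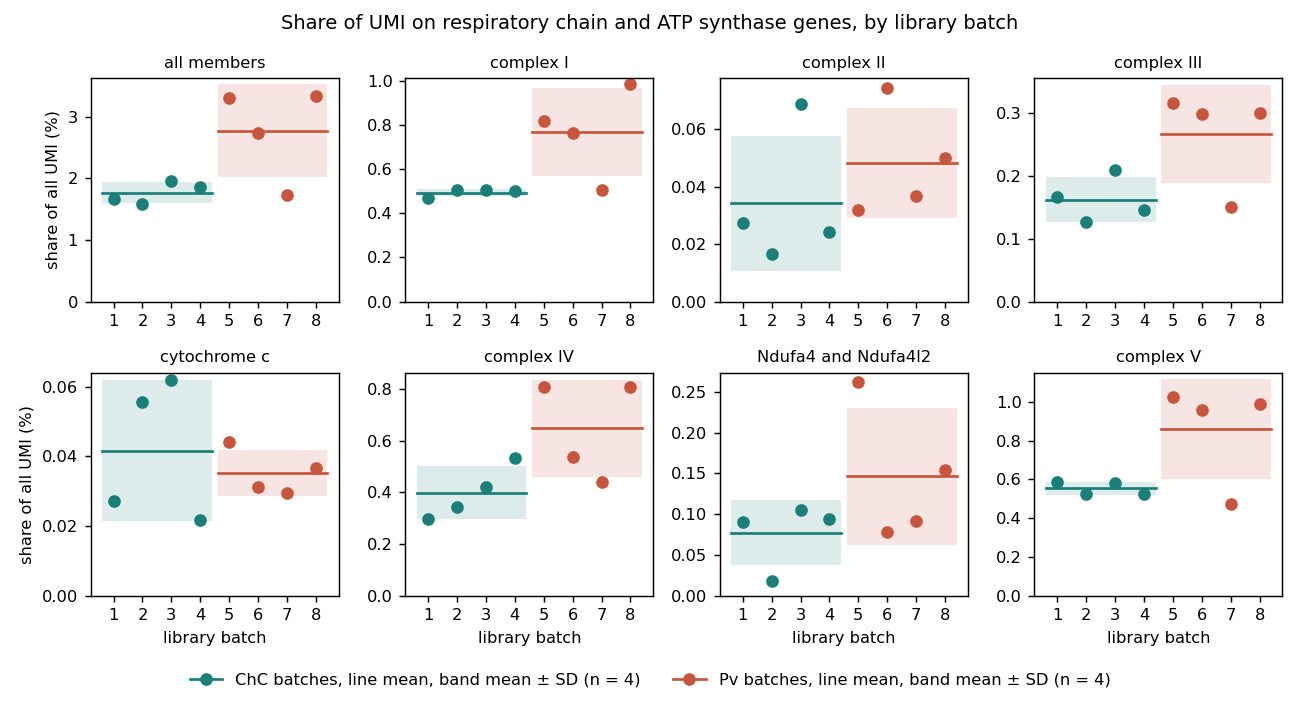
Share of all UMI (%, vertical axis, from 0) on the members of each complex in library batches 1 to 8 (horizontal axis), with the mean and SD of the 4 batches of each type. For all members Pv batches 5, 6 and 8 lie at 2.74 to 3.33%, above the ChC batches at 1.59 to 1.96%, and batch 7 lies at 1.73%.

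In complexes I, III, IV and V, too, batches 5, 6 and 8 were above all ChC batches. Complex I, which takes electrons from NADH, held 0.467, 0.504, 0.505 and 0.499% of UMI in ChC batches 1 to 4 and 0.817, 0.763, 0.506 and 0.984% in Pv batches 5 to 8. Its ChC batches lay close together, and batch 7 was above the highest of them by less than counting error and the other Pv batches were higher. Its means were 0.494% ± 0.0178 in ChC and 0.767% ± 0.198 in Pv (SD, n = 4 batches each). Complex III, which hands electrons to cytochrome c, held 0.167, 0.126, 0.21 and 0.145% of UMI in ChC batches 1 to 4 and 0.316, 0.298, 0.15 and 0.3% in Pv batches 5 to 8. Batch 7 again fell among the ChC values, and the means were 0.162% ± 0.0357 in ChC and 0.266% ± 0.0778 in Pv (SD, n = 4 batches each). Complex IV, cytochrome c oxidase, held 0.297, 0.342, 0.421 and 0.533% of UMI in ChC batches 1 to 4 and 0.808, 0.538, 0.441 and 0.808% in Pv batches 5 to 8. Here Pv batch 6 was barely above ChC batch 4, batch 7 lay among the ChC values, and the means were 0.398% ± 0.103 in ChC and 0.648% ± 0.188 in Pv (SD, n = 4 batches each). Complex V held 0.588, 0.527, 0.579 and 0.526% of UMI in ChC batches 1 to 4 and 1.02, 0.956, 0.475 and 0.987% in Pv batches 5 to 8. Batch 7 was below all ChC batches in complex V, and the other Pv batches were above them, with means of 0.555% ± 0.0331 in ChC and 0.86% ± 0.258 in Pv (SD, n = 4 batches each). The log2 ratios of ChC over Pv were -0.64 for complex I, -0.72 for complex III, -0.70 for complex IV and -0.63 for complex V.

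Complex II and cytochrome c did not show this order. Complex II, succinate dehydrogenase, which is also an enzyme of the citric acid cycle, held 0.0273, 0.0167, 0.0689 and 0.0242% of UMI in ChC batches 1 to 4 and 0.0318, 0.0746, 0.0367 and 0.0502% in Pv batches 5 to 8. High and low batches occurred in both types, and the means of 0.0343% ± 0.0235 in ChC and 0.0483% ± 0.0192 in Pv (SD, n = 4 batches each) differed by less than 1 SD. Without ChC batch 3 the ChC mean was 0.0227% and the other ChC batches lay below all Pv batches. The log2 ratio of -0.49 became -1.09 without batch 3 and -0.21 without batch 6. Cytochrome c, the mobile carrier between complexes III and IV, held 0.0273, 0.0558, 0.0621 and 0.0216% of UMI in ChC batches 1 to 4 and 0.044, 0.0311, 0.0294 and 0.0366% in Pv batches 5 to 8. Its ChC mean was the higher, at 0.0417% ± 0.0202 in ChC and 0.0353% ± 0.00658 in Pv (SD, n = 4 batches each), again within 1 SD, but the log2 ratio of 0.24 became -0.02 without batch 3 and 0.46 without batch 4. Ndufa4 with its paralog held 0.09, 0.0185, 0.106 and 0.0947% of UMI in ChC batches 1 to 4 and 0.262, 0.0782, 0.0916 and 0.154% in Pv batches 5 to 8. Batches 5 and 8 were above the ChC batches and batches 6 and 7 among them, with means of 0.0772% ± 0.0396 in ChC and 0.146% ± 0.0836 in Pv (SD, n = 4 batches each).

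Single cells mostly followed their batch. Cell Pv-19 of batch 6 did not, at 1.18% against 2.48 to 2.96% in the other 14 cells. The share of UMI on members ranged over cells from 1.05 to 1.88% in batch 1 and from 1.42 to 2.13% in batch 3. In Pv batch 8 it ranged from 2.74 to 3.56%, and in Pv batch 5 from 2.77 to 3.69%, above every ChC cell, the highest of which had 2.35%. In Pv batch 7 it ranged from 1.18 to 2.22%, with a median of 1.75%. The SD over cells was above counting error in all 8 batches. It was 0.192 percentage points in batch 8, 0.288 in batch 7 and 0.426 in batch 6, which holds cell Pv-19. Counting error alone would give 0.0886, 0.105 and 0.139.

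**Figure D2:**
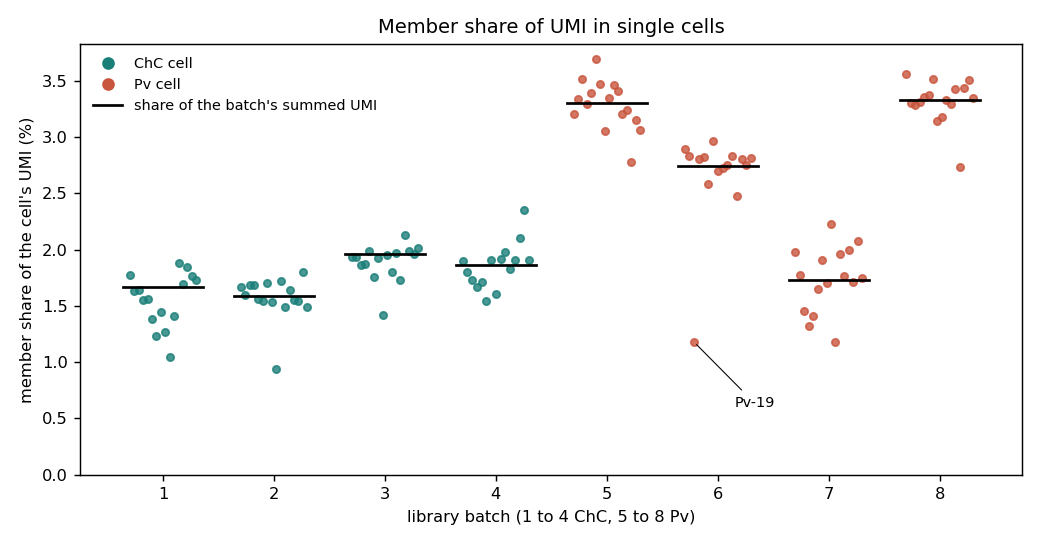
Share of each cell's UMI on the members (%, vertical axis, from 0) by library batch (horizontal axis), with a line at the share of the batch's summed UMI. Cells of 1 batch lie together, those of Pv batch 7 lie among the ChC cells with a median of 1.75%, and cell Pv-19 lies at 1.18% in a batch with a median of 2.8%.

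Other properties of the libraries differed between batches along with the member share, and their part in it was not tested. Genes with a span under 5 kb on the genome took 8.68, 9.79, 9.64 and 12.8% of UMI in ChC batches 1 to 4 and 14.6, 12, 8.98 and 13.8% in Pv batches 5 to 8. Genes with a span over 500 kb took 10.2, 10.3, 9.55 and 7.53% and 6.46, 6.77, 8.87 and 5.52%. Batches 5, 6 and 8 were below all ChC batches for the long genes and batch 7 was among them, while for the short genes ChC batch 4 was above Pv batch 6. Members are short genes, with 75 of 86 under 20 kb. Measured against the UMI of genes under 20 kb only, the share of the members in that class was 5.26, 4.88, 5.91 and 4.91% in ChC batches and 7.91, 6.92, 5.2 and 7.8% in Pv batches, which again set batches 5, 6 and 8 above all ChC batches and batch 7 among them. On this measure the log2 ratio was -0.41 for all members and, for complexes I to V, -0.39, -0.41, -0.51, -0.48 and -0.36, all nearer to 0 than before, while that of cytochrome c was farther from 0, at 0.49. Genes of cytosolic ribosomal proteins took 1.19, 1.59, 1.62 and 3.14% of UMI in ChC and 4.16, 2.21, 2.03 and 2.89% in Pv, with ChC batch 4 above Pv batches 6, 7 and 8. Rn45s, a precursor of ribosomal RNA, stood at 13474, 14753, 1094 and 4073 CPM in ChC and 2382, 586, 2284 and 529.6 in Pv, with ChC batches 1, 2 and 4 above all Pv batches.

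Gene by gene, no member passed the test between ChC and Pv. Of the 86 members 83 had a UMI and 80 passed the filter on low counts. In edgeR's quasi-likelihood test over 2 ChC and 2 Pv animals, adjusted over 9829 genes, 0 of 80 members were called at an adjusted p of 0.05, as were 0 of all genes (a background of 0%). At an unadjusted p under 0.05 there was 1 member (1.25%) against 616 of all genes (6.27%). DESeq2 called 0 members and 150 of all genes (1.53%), with 0 members and 9.53% of all genes at an unadjusted p under 0.05. With batches as samples edgeR called 0 of 78 members and 0.0771% of 6481 genes, with 1 member (1.28%) and 6.84% of all at an unadjusted p under 0.05. Over batches limma-voom called 0 members and 6 genes (0.0926%), with 5 members (6.41%) and 8.73% at an unadjusted p under 0.05. With cells of equal weight limma called 0 members and 0 genes, with 4 members (5%) and 6.56% at an unadjusted p under 0.05. The median log2 fold change (ChC over Pv) was -0.71 over the 80 members and 0.04 over all genes tested, and 66 members (82.5%) were below 0 against 48.5% of all genes. By complex the members below 0 numbered 27 of 35 in complex I, 4 of 4 in complex II, 8 of 9 in complex III, 11 of 13 in complex IV and 14 of 15 in complex V. Their medians were -0.72, -0.30, -0.60, -1.0 and -0.76. Other genes also differed by span: the median was -0.35 over 908 other genes under 5 kb, -0.16 over 2674 from 5 to 20 kb, and 0.27 over 1966 over 100 kb. Members under 5 kb had a median of -0.68 (27 genes) and those from 5 to 20 kb -0.86 (42 genes). The direction of the members' median was the same with each scaling tried; with library sizes taken from genes under 20 kb the median of all genes moved to 0.26 and that of the members to -0.52.

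**Figure D3:**
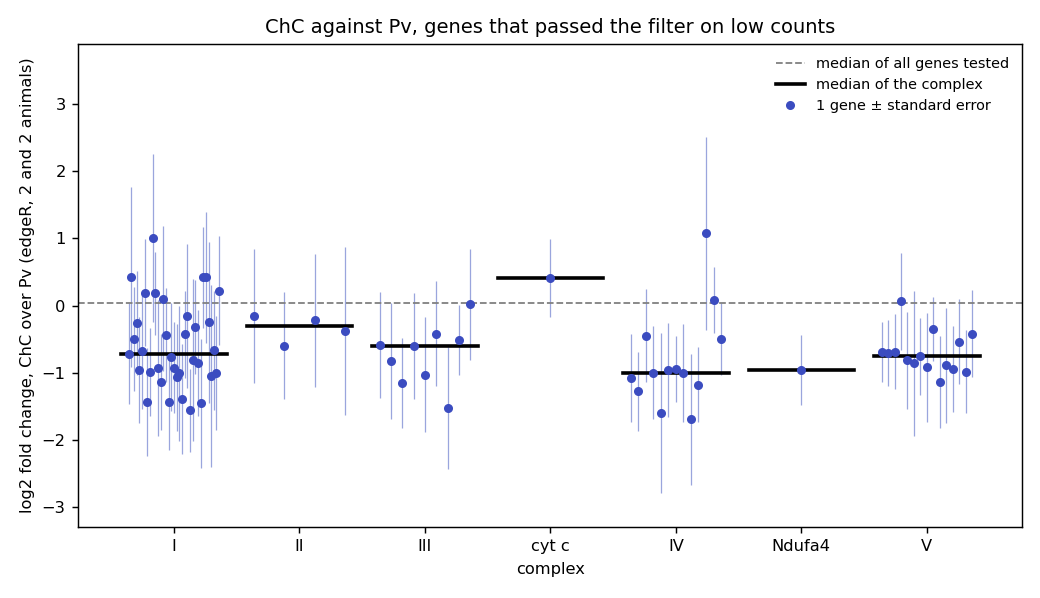
Log2 fold change of ChC over Pv with its standard error (vertical axis) for the 78 subunit genes that passed the filter, by complex (horizontal axis), with the median of each complex and of all genes tested. Most points lie below the median of all genes, which is at 0.04.

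Members varied widely between the libraries of 1 animal. Between the 2 batches of animal 1 the median absolute log2 difference over the 80 members was 1.18, and 21 members differed by over 4-fold. For animals 2, 3 and 4 the medians were 0.76, 0.94 and 1.15, with 7, 12 and 11 members over 4-fold. Over 3562 other genes of like level the medians were 1.59, 1.00, 1.69 and 1.08, so this spread was common to the libraries.

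The members that held apart were few. Every ChC batch lay below every Pv batch for 5 of the 80 members (6.25%), against 1.6% of all genes tested, and the reverse held for 0 members against 2.62% of all genes. The 5 were Cox5a, Cox6a1, Cox7a2l, Ndufa13 and Atp5j, and in each of them batch 7 stood with the other Pv batches. Cox6a1 (chr5:115795663-115798964, minus strand, mm9), the subunit VIa form found in most tissues, stood at 147, 161, 140.3 and 124 CPM in ChC batches 1 to 4 and 289.6, 267, 335 and 291 in Pv batches 5 to 8. Its batches were tight within each type, at 143 ± 15.2 in ChC and 296 ± 28.4 in Pv (SD, n = 4 batches each), and the log2 fold change (ChC over Pv) was -1.0 (SE 0.70, edgeR adjusted p = 0.934). Atp5j (chr16:84828116-84835819, minus strand, mm9), coupling factor 6 in the stalk of ATP synthase, stood at 105, 73.2, 75.3 and 82.1 CPM in ChC batches 1 to 4 and 158, 133, 150.3 and 163 in Pv batches 5 to 8. It too was tight within each type, and the log2 fold change (ChC over Pv) was -0.89 (SE 0.86, edgeR adjusted p = 0.988). Its span overlaps that of Gabpa on the other strand, which shared 42 of its 44 UMI with it, 27 of them in batch 7. Without these 42 Atp5j stood at 88.8 CPM in batch 7, below ChC batch 1; without such UMI 4 members held apart.

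Cox5a (chr9:57369039-57380233, plus strand, mm9), a nuclear subunit on the matrix side of complex IV, stood at 213, 296, 116 and 423 CPM in ChC batches 1 to 4 and 463, 622, 487 and 638 in Pv batches 5 to 8. ChC batch 4 came close to Pv batch 5, and the log2 fold change (ChC over Pv) was -1.28 (SE 0.59, edgeR adjusted p = 0.814), and -0.68 without batch 3. Cox7a2l, a relative of subunit VIIa known for its role in joining complexes III and IV into supercomplexes, stood at 8.54, 36.6, 118 and 131 CPM in ChC batches 1 to 4 and 403, 193, 207 and 189.9 in Pv batches 5 to 8. It was nearly absent from ChC batch 1 and highest in Pv batch 5, and the log2 fold change (ChC over Pv) was -1.70 (SE 0.98, edgeR adjusted p = 0.883), and -0.96 without animal 1 and -3.35 without animal 2. Ndufa13 (chr8:72418081-72426457, minus strand, mm9), an accessory subunit of complex I, stood at 36.3, 108, 198 and 180.1 CPM in ChC batches 1 to 4 and 322, 233, 253 and 263 in Pv batches 5 to 8. Its Pv batches were close together and its ChC batches spread, and the log2 fold change (ChC over Pv) was -0.96 (SE 0.79, edgeR adjusted p = 0.963). It was -1.82 without animal 2 but -0.43 without animal 1.

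In complex I the 2 members with the highest CPM were Ndufa8 and Ndufc2, both accessory subunits. Ndufa8 (chr2:35891854-35904812, minus strand, mm9) stood at 828, 154, 233 and 429 CPM in ChC batches 1 to 4 and 188, 542, 179.9 and 315 in Pv batches 5 to 8. ChC batch 1 was the highest and the types overlapped throughout, and the log2 fold change (ChC over Pv) was 0.18 (SE 0.62, edgeR adjusted p = 0.999), and -0.10 without animal 1 and -0.06 without animal 4. Ndufc2 stood at 17.1, 304, 222 and 122 CPM in ChC batches 1 to 4 and 656, 637, 291 and 523 in Pv batches 5 to 8. It was lowest in ChC batch 1, ChC batch 2 exceeded Pv batch 7, and it was the member with the lowest unadjusted p, 0.0353; the log2 fold change (ChC over Pv) was -1.56 (SE 0.62, edgeR adjusted p = 0.739). Ndufa7, an accessory subunit, had the most positive log2 fold change in complex I. It stood at 96, 76.4, 37.5 and 46 CPM in ChC batches 1 to 4 and 20.9, 6.35, 13.7 and 63.6 in Pv batches 5 to 8. Its levels were low, ChC batch 1 was the highest, and the log2 fold change (ChC over Pv) was 1.01 (SE 1.25, edgeR adjusted p = 0.991), and 0.41 without animal 3 and 2.18 without animal 4. Over the 35 members of complex I the mean of the 8 batches ran from 45 (Ndufa7) to 359 CPM (Ndufa8). Per kilobase of the longest annotated transcript the highest was Ndufa1, at 608, and the lowest Ndufs1, which carries iron-sulfur clusters, at 24.5 CPM per kilobase.

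In complex II, Sdhb, the iron-sulfur subunit, stood at 166, 39.8, 231 and 60.3 CPM in ChC batches 1 to 4 and 134, 349, 100.2 and 201 in Pv batches 5 to 8. The types overlapped, and the log2 fold change (ChC over Pv) was -0.60 (SE 0.80, edgeR adjusted p = 0.991). This fold change was larger in size without batch 3 (-1.42), animal 2 (-1.19) or animal 4 (-0.87). It was smaller without batch 6 (-0.19) or animal 3 (-0.26), and smallest without animal 1, so its size rests on single libraries and animals. Sdhc, a membrane anchor, stood at 10.7, 63.7, 304 and 62.5 CPM in ChC batches 1 to 4 and 6.95, 328, 95.6 and 170.4 in Pv batches 5 to 8. ChC batch 3 and Pv batch 6 were high and ChC batch 1 and Pv batch 5 low, and the log2 fold change (ChC over Pv) was -0.22 (SE 0.99, edgeR adjusted p = 0.999). It was 0.82 without batch 6, -1.59 without batch 3, 0.56 without animal 1 and -2.01 without animal 2. Sdha, the flavoprotein, stood at 68.3, 60.5, 106 and 85.9 CPM in ChC batches 1 to 4 and 141, 102, 54.6 and 68.8 in Pv batches 5 to 8. Here the batches were more even, and the log2 fold change (ChC over Pv) was -0.16 (SE 1.00, edgeR adjusted p = 0.999), and 0.16 without animal 1 and 0.40 without animal 3. Per kilobase of transcript the order of the means was Sdhb at 140.4, Sdhc at 41.1, Sdha at 29.6 and Sdhd at 27.5 CPM per kilobase.

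In complex III, Uqcrh, the hinge protein that holds cytochrome c1, stood at 519, 439, 630.3 and 254 CPM in ChC batches 1 to 4 and 788, 714, 398 and 779 in Pv batches 5 to 8. Batches 5, 6 and 8 were above all ChC batches and batch 7 was not, and the log2 fold change (ChC over Pv) was -0.51 (SE 0.52, edgeR adjusted p = 0.988). Uqcrfs1, the Rieske iron-sulfur protein, stood at 51.2, 31.8, 134 and 231 CPM in ChC batches 1 to 4 and 415, 351, 47.8 and 295 in Pv batches 5 to 8. The same 3 Pv batches were high and batch 7 was low, and the log2 fold change (ChC over Pv) was -1.53 (SE 0.91, edgeR adjusted p = 0.888), and -0.83 without animal 1 and -2.94 without animal 2. Cycs, cytochrome c itself, stood at 307, 584, 597 and 213 CPM in ChC batches 1 to 4 and 466, 330.3, 248 and 346 in Pv batches 5 to 8. All Pv batches lay inside the range of the ChC batches, and the log2 fold change (ChC over Pv) was 0.41 (SE 0.58, edgeR adjusted p = 0.991), and -0.06 without batch 3. Per kilobase of transcript Uqcrh, at 1033, had the highest mean of complex III and Uqcrc1, a core protein, the lowest, at 69.7 CPM per kilobase.

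In complex IV the 2 members with the highest CPM were Cox7c and Cox6c, small subunits that span the membrane. Cox7c stood at 704, 942, 871 and 1635 CPM in ChC batches 1 to 4 and 1476, 682, 168 and 1073 in Pv batches 5 to 8. Batch 7 was the lowest of all and ChC batch 4 the highest, and the log2 fold change (ChC over Pv) was 0.08 (SE 0.49, edgeR adjusted p = 0.999). It was -0.28 without batch 6, -0.18 without animal 2, -0.15 without animal 4 and -0.14 without batch 7. Cox6c stood at 412, 644, 453 and 897 CPM in ChC batches 1 to 4 and 1520, 572, 439 and 1508 in Pv batches 5 to 8. Pv batches 5 and 8 were high and Pv batches 6 and 7 among the ChC batches, and the log2 fold change (ChC over Pv) was -0.95 (SE 0.49, edgeR adjusted p = 0.862). Ndufa4 stood at 1014, 194, 1015 and 933 CPM in ChC batches 1 to 4 and 2766, 830.0, 772 and 1457 in Pv batches 5 to 8. Pv batches 5 and 8 were the highest and ChC batch 2 was the lowest, and the log2 fold change (ChC over Pv) was -0.96 (SE 0.52, edgeR adjusted p = 0.881). Per kilobase of transcript Ndufa4 had the highest mean of all members, at 2282, and Cox7c had 1331 CPM per kilobase. In CPM the highest mean of all members was that of Atp5a1, at 1383, and Ndufa4 had 1123.

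In complex V the 2 members with the highest CPM were Atp5a1 and Atp5b, the alpha and beta subunits that form the catalytic head. Atp5a1 stood at 1142, 1122, 1300 and 721 CPM in ChC batches 1 to 4 and 2273, 2024, 617 and 1867 in Pv batches 5 to 8. Batches 5, 6 and 8 were above all ChC batches and batch 7 below them, and the log2 fold change (ChC over Pv) was -0.69 (SE 0.45, edgeR adjusted p = 0.918). Atp5b stood at 756, 748, 859.6 and 991 CPM in ChC batches 1 to 4 and 1198, 2081, 569 and 1260 in Pv batches 5 to 8. Batches 5, 6 and 8 were above all ChC batches and batch 7 was the lowest, and the log2 fold change (ChC over Pv) was -0.71 (SE 0.49, edgeR adjusted p = 0.934). Atp5h, subunit d of the stator stalk, stood at 66.2, 242, 139 and 125 CPM in ChC batches 1 to 4 and 366, 246, 72.9 and 489.6 in Pv batches 5 to 8. Pv batches 5, 6 and 8 were the highest, batch 6 only just above ChC batch 2, batch 7 was among the ChC values, and the log2 fold change (ChC over Pv) was -1.14 (SE 0.68, edgeR adjusted p = 0.888). Atp5d, the delta subunit of the central stalk, stood at 89.6, 388, 148 and 182 CPM in ChC batches 1 to 4 and 239, 114, 139 and 265 in Pv batches 5 to 8. Here the types overlapped throughout, and the log2 fold change (ChC over Pv) was 0.06 (SE 0.73, edgeR adjusted p = 0.999). It was -0.19 without batch 6, -0.28 without animal 1, -0.07 without animal 3 and -0.09 without batch 7.

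Some subunits have paralogs that differ between tissues. In the Cox4i, Cox7a, Cox8, Cox6b and Ndufa4 groups nearly all UMI fell on the forms found in most tissues. Cox4i1 had 5783 UMI and Cox4i2, known from lung, 1 UMI. Cox7a2 had 1260 UMI and Cox7a1, the heart and muscle form, 3 UMI, all in ChC batch 3. Cox8a had 4080 UMI, Cox8b, the muscle form, 1 UMI, and Cox8c, a testis form, none. Cox6b1 had 1480 UMI and Cox6b2, a testis form, none; Ndufa4 had 8239 and Ndufa4l2, known as a gene induced by low oxygen, none. A count of 0 over all cells allows up to 0.393 CPM (3 counts, counting error only). No fold change is given for these genes, which did not pass the filter.

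Cox4i1, the main form of the largest nuclear subunit, stood at 36.3, 431, 794 and 585 CPM in ChC batches 1 to 4 and 1582, 1103, 442 and 953 in Pv batches 5 to 8. It was lowest in ChC batch 1, batches 5, 6 and 8 were above all ChC batches, and batch 7 was not. The log2 fold change (ChC over Pv) was -1.08 (SE 0.65, edgeR adjusted p = 0.89). It was -2.06 without animal 2 but -0.50 without animal 1, and it was also smaller in size without animal 3. Cox8a stood at 724, 407, 439 and 424 CPM in ChC batches 1 to 4 and 1089, 315, 389 and 830.3 in Pv batches 5 to 8. ChC batch 1 and Pv batches 5 and 8 were high, and the log2 fold change (ChC over Pv) was -0.50 (SE 0.53, edgeR adjusted p = 0.988). Cox6b1 stood at 64, 202, 165 and 124 CPM in ChC batches 1 to 4 and 433, 186, 143 and 330.5 in Pv batches 5 to 8. Pv batches 5 and 8 were above all ChC batches, and the log2 fold change (ChC over Pv) was -0.96 (SE 0.70, edgeR adjusted p = 0.937). Cox7a2 stood at 194, 95.5, 139 and 81.4 CPM in ChC batches 1 to 4 and 401, 197, 123 and 269 in Pv batches 5 to 8. Pv batches 5, 6 and 8 were above all ChC batches, batch 6 only just, and batch 7 was among them, and the log2 fold change (ChC over Pv) was -1.0 (SE 0.73, edgeR adjusted p = 0.94).

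Cox6a2, the heart and muscle form of subunit VIa that is also known from parvalbumin interneurons, stood at 96, 0, 24.9 and 143 CPM in ChC batches 1 to 4 and 32.4, 502, 47.8 and 24.6 in Pv batches 5 to 8. It had no UMI in ChC batch 2 (3 counts there would be 4.77 CPM), and Pv batch 6 alone was far above the rest. The log2 fold change (ChC over Pv) was -1.60 (SE 1.19, edgeR adjusted p = 0.945). It was 0.63 without batch 6, -0.68 without batch 3, 0.73 without animal 3 and -2.46 without animal 4, so its direction rests on batch 6. A Cox6a2 UMI was found in 11, 0, 12 and 15 cells of ChC batches 1 to 4 and in 9, 14, 11 and 11 cells of Pv batches 5 to 8, of 15 or 16 cells in each. Of the UMI of Cox6a1 and Cox6a2 together, Cox6a2 held 39.5, 0, 15.1 and 53.5% in ChC batches and 10.1, 65.3, 12.5 and 7.79% in Pv batches. The mix of the forms thus varied from batch to batch in both types. Cox6a2 (chr7:135348949-135349880, minus strand, mm9) overlaps the end of Itgad on the other strand by 69 bases, and 311 of the 312 UMI of Itgad were matched by UMI of Cox6a2 in the same cells, so for these the genes cannot be told apart; Cox6a2 had 606 UMI in all. Without the shared UMI it stood at 12.8, 0, 24.2 and 46 CPM in ChC batches and 16.2, 220.2, 45.5 and 24.6 in Pv batches, and held 8, 0, 14.7 and 27% and 5.3, 45.2, 12 and 7.79% of the UMI of the pair.

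Cox7b2, a paralog of Cox7b known from testis, was the member of complex IV with the most positive log2 fold change. It stood at 53.4, 9.55, 2.32 and 20.3 CPM in ChC batches 1 to 4 and 6.95, 14.8, 9.11 and 4.11 in Pv batches 5 to 8, on 83 UMI in all. The log2 fold change (ChC over Pv) was 1.08 (SE 1.44, edgeR adjusted p = 0.991). It was -0.04 without animal 1, 1.71 without animal 2 and 1.68 without animal 3, so its direction rests on animal 1. As a part of the UMI of Cox7b and Cox7b2 it held 8.2, 7.32, 0.642 and 9.06% in ChC batches and 1.44, 2.02, 1.63 and 0.422% in Pv batches, so 3 ChC batches were above all Pv batches and ChC batch 3 was among the Pv values. It had a UMI in 47.8% of ChC and 25.6% of Pv cells (means of 4 batches), and in 17.2% and 5% of cells thinned to 10000 UMI, which leaves out 14 ChC and 4 Pv cells. Cox7b itself stood at 598, 121, 359 and 204 CPM in ChC batches 1 to 4 and 477, 719.9, 551 and 969 in Pv batches 5 to 8. ChC batch 1 lay within the Pv range and the other ChC batches below it, and the log2 fold change (ChC over Pv) was -1.18 (SE 0.56, edgeR adjusted p = 0.818).

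Atp5g1, Atp5g2 and Atp5g3 encode the same mature c subunit, which forms the rotating ring of ATP synthase, behind different import sequences. Atp5g3 stood at 1362, 912, 689 and 858 CPM in ChC batches 1 to 4 and 1374, 1126, 389 and 1418 in Pv batches 5 to 8. It was lowest in batch 7 and the types overlapped, and the log2 fold change (ChC over Pv) was -0.35 (SE 0.48, edgeR adjusted p = 0.991). Atp5g1 stood at 546, 586, 249 and 356 CPM in ChC batches 1 to 4 and 885, 440.4, 314 and 981 in Pv batches 5 to 8. Pv batches 5 and 8 were above all ChC batches, and the log2 fold change (ChC over Pv) was -0.76 (SE 0.58, edgeR adjusted p = 0.95). Its 2 entries in the table hold identical UMI, so the sum counts each molecule again. Atp5g2 stood at 57.6, 116, 146 and 87.4 CPM in ChC batches 1 to 4 and 222, 305, 54.6 and 196 in Pv batches 5 to 8. Pv batches 5, 6 and 8 were above all ChC batches, and the log2 fold change (ChC over Pv) was -0.92 (SE 0.81, edgeR adjusted p = 0.976). With 1 entry per gene and all batches pooled, Atp5g3 held 71.2% of the UMI of these genes, Atp5g1 17.7% and Atp5g2 11.1%, though in batches 3 and 6 Atp5g2 had more UMI than Atp5g1.

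Overlap with other genes limits some members. The span of 11 members overlaps another gene of the table, and 8 of these have UMI in the same cells as that gene, 7 of them on the other strand. Xist and Tsix, which overlap on opposite strands, had 48, 223, 2358 and 597 and 90, 264, 2380 and 602 UMI in ChC batches 1 to 4 and 129, 0, 82 and 207 and 139, 7, 100 and 219 in Pv batches 5 to 8, near-equal numbers in most batches, so UMI of opposite strands cannot be told apart here. Ndufs5 had the same 1342 UMI as an entry of BC002163 in every cell. Ndufs1 had 409 of its 635 UMI in common with Gm11602, Atp5f1 305 of 456 with Wdr77, Ndufb11 160 of 447 with Rbm10, Uqcrc2 231 of 1382 with Pdzd9 and Ndufa2 46 of 1429 with Tmco6. The values of these members, and of Atp5j and Cox6a2, are uncertain to that extent.

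The promoters of the members were searched for letters that factors of mitochondrial gene control are known to bind, on both strands, in windows from 250 bases before to 50 bases after the start (RefSeq, GRCm38.p6), which were at hand for 70 of the 86 members. The palindrome CGCATGCG, the core of the NRF-1 motif, stood in 10 of 70 members (14.3%) and in 2.07% of 27025 genes. AAGATGGCG, for YY1, stood in 8 members (11.4%) and 1.64% of all genes. CCGGAAGT, for GABP, stood in 5 (7.14%) against 4.31%, and TCAAGGTCA, for ERR, in 2 (2.86%) against 0.466%. These counts describe letters, not binding. Of the 5 members whose batches held apart, Cox6a1 and Atp5j have the NRF-1 letters. Atp5j also has another start, and the 250 bases before that start hold none of the motifs. Atp5j did not hold apart without the UMI shared with Gabpa. Cycs, whose batches overlapped, has the NRF-1 letters too. The 250 bases before their starts are shown 5′ to 3′ for Cox6a1 and Cycs with CGCATGCG in capitals, to set a member that held apart beside one that did not. They lie at chr5:115348959-115349208, minus strand (Cox6a1) and chr6:50566570-50566819, minus strand (Cycs) in GRCm38.p6.
Cox6a1: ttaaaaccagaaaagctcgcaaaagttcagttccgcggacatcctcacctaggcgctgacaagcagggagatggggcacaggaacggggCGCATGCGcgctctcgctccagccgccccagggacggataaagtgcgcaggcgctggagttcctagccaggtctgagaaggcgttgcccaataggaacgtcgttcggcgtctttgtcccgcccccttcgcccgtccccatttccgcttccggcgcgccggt
Cycs: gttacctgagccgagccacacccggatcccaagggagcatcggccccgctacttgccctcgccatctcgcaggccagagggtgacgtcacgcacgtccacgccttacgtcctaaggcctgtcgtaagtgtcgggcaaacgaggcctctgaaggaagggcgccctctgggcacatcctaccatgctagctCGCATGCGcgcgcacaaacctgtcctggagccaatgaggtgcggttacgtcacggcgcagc

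Other mitochondrial genes were set beside the subunits. Over all genes tested edgeR called 0%, 6.27% had an unadjusted p under 0.05 in edgeR, DESeq2 called 1.53%, and 48.5% were below 0. Of 17 genes of the citric acid cycle and pyruvate dehydrogenase, 17 passed the filter, edgeR called 0 and DESeq2 0, 1 had an unadjusted p under 0.05 in edgeR, and 16 were below 0, with a median log2 fold change of -0.69 against 0.04 over all genes tested. They took 0.306, 0.19, 0.222 and 0.245% of UMI in ChC batches and 0.374, 0.532, 0.255 and 0.397% in Pv batches. A list of 17 genes was taken for carriers and channels of the mitochondrial membranes, and it also holds Phb, a prohibitin. Of these edgeR called 0 (3 at an unadjusted p under 0.05) and DESeq2 0, and 10 (58.8%) were below 0 (median -0.47). They took 0.286, 0.312, 0.334 and 0.234% of UMI in ChC and 0.58, 0.364, 0.294 and 0.51% in Pv. In both lists batch 7 again stood below the other Pv batches. Of 43 assembly factors 30 are in the table and 27 passed the filter. Of these edgeR called 0 (1 at an unadjusted p under 0.05) and DESeq2 1, and 16 (59.3%) were below 0 (median -0.22), with means of 0.116% and 0.133% of UMI in ChC and Pv. The factors took 0.11, 0.0644, 0.188 and 0.1% of UMI in ChC batches and 0.123, 0.128, 0.136 and 0.143% in Pv batches. ChC batch 3 was thus above every Pv batch. Of 76 mitochondrial ribosomal proteins 71 passed the filter. Of these edgeR called 0 (1 at an unadjusted p under 0.05) and DESeq2 1, and 44 (62%) were below 0 (median -0.55), with means of 0.323% and 0.394%. Their shares were 0.318, 0.27, 0.314 and 0.391% of UMI in ChC batches and 0.378, 0.425, 0.298 and 0.476% in Pv batches. ChC batch 4 was above Pv batches 5 and 7.

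Genes of these lists with an unadjusted p under 0.05 or with batches of the types apart are named after their values were seen. Slc25a3, the phosphate carrier that feeds ATP synthase, stood at 93.9, 274, 250.5 and 218 CPM in ChC batches 1 to 4 and 433, 429.8, 339 and 597 in Pv batches 5 to 8. Every Pv batch was above every ChC batch, and the log2 fold change (ChC over Pv) was -1.11 (SE 0.61, edgeR adjusted p = 0.883). Slc25a4, the ADP/ATP carrier, stood at 177, 193, 291 and 227 CPM in ChC batches 1 to 4 and 1094, 428, 157 and 707 in Pv batches 5 to 8. Batch 7 was the lowest of all here, and the log2 fold change (ChC over Pv) was -1.48 (SE 0.61, edgeR adjusted p = 0.756). Vdac1, the channel of the outer membrane, stood at 267, 406, 91.2 and 273 CPM in ChC batches 1 to 4 and 2268, 222, 255 and 809 in Pv batches 5 to 8. Batches 5 and 8 were high and batches 6 and 7 among the ChC batches, and the log2 fold change (ChC over Pv) was -1.92 (SE 0.66, edgeR adjusted p = 0.704). Pdhb, a subunit of pyruvate dehydrogenase, stood at 27.7, 14.3, 39.8 and 45.2 CPM in ChC batches 1 to 4 and 104, 377, 66 and 169 in Pv batches 5 to 8. All Pv batches were above all ChC batches, and the log2 fold change (ChC over Pv) was -2.62 (SE 1.00, edgeR adjusted p = 0.724). Phb, prohibitin of the inner membrane, stood at 25.6, 14.3, 47.1 and 6.03 CPM in ChC batches 1 to 4 and 114, 324, 45.5 and 105 in Pv batches 5 to 8. ChC batch 3 lay just above Pv batch 7, and the log2 fold change (ChC over Pv) was -2.51 (SE 1.09, edgeR adjusted p = 0.793).

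Foxred1, an assembly factor of complex I, had 3 UMI in ChC, all in batch 3. In Pv it stood at 111, 2.12, 29.6 and 207 CPM in batches 5 to 8. Its adjusted p was 0.598 with edgeR and 0.000347 with DESeq2. Mrps12, of the small mitochondrial ribosomal subunit, stood at 0, 6.37, 3.65 and 8.29 CPM in ChC batches 1 to 4 and 137, 249.8, 41 and 115 in Pv batches 5 to 8. Every Pv batch was above every ChC batch, and the log2 fold change (ChC over Pv) was -5.0 (SE 1.26, edgeR adjusted p = 0.598), with 0.00147 from DESeq2.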

How the data were processed

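Single neurons of mouse frontal cortex were profiled in 8 library batches from 4 animals. The submitters' processing notes give Bowtie 0.12.7 and mm9; the counts are the UMI table the authors deposited, with 27207 transcript entries and 128 cells, from polyA RNA after 2 rounds of linear amplification with a random tag on each aRNA. Cells ChC-49 and Pv-27 had no UMI and were left out. Entries of a gene name were summed; 2641 names have several, and 883 of these hold identical counts in each, so the sum (7641250 UMI) exceeds that of the entry with most UMI (6525445). The members and lists were chosen with earlier results of these data known.

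Counts were summed per animal and compared with edgeR 4.0.16 (TMM, filterByExpr, glmQLFit, glmQLFTest; R 4.3.3), with Benjamini-Hochberg adjustment over all genes that passed the filter and a threshold of 0.05. Standard errors are the absolute log2 fold change over the root of F. DESeq2 1.42.0 and limma 3.58.1 were alternatives. Shares and figures used Python 3.11.15, numpy 2.4.6, pandas 2.3.3, scipy 1.17.1 and matplotlib 3.10.9, and share intervals are 95% Wilson intervals. Batch levels are CPM with TMM over 8 batches; log2 differences between batches use a pseudocount of 1 CPM. Transcript lengths are from GENCODE vM1, and spans and coordinates from the table (mm9).

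Named members were, in each complex (III with cytochrome c), the 2 with the highest CPM and those with the largest and smallest log2 fold change, every called member, every member whose batches of the types did not overlap, the paralog groups of Cox4i, Cox6a, Cox6b, Cox7a, Cox7b, Cox8, Ndufa4 and Atp5g, and Pvalb and Xist as checks. Genes of other lists were named after their values were seen. Alternatives changed the tool, scaling, filter, unit, choice of entry, cells and libraries; those without batch 7, without cell Pv-19, scaled to genes under 20 kb with shares of the UMI of those genes and without UMI shared with an overlapping gene were added after seeing the data. Total UMI per batch ran from 370238 to 2898413, and 3 counts were taken as the floor; intervals and floors cover counting error only.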

Additional observations from a re-analysis of the deposited data

Results flagged for a closer look

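In 82 groups of 4 batches, 7 values lay far from the other 3 of their group, by Dixon's ratio of the gap to the range; chance gives about 1 group in 20. Pv batch 7 was far below the other Pv batches in its share of UMI on complex III, at 0.15% against 0.298 to 0.316%, and on complex V, at 0.475% against 0.956 to 1.02%. ChC batch 1 was low in its share on complex I, at 0.467% against 0.499 to 0.505%, and high in Cox8a, at 724 CPM against 407 to 439. Ndufa4 was low in ChC batch 2, at 194 CPM against 933 to 1015 in the other ChC batches. Cox7a2l was high in Pv batch 5, at 403 CPM against 190 to 207, with the other Pv batches close together. Cox6a2 was high in Pv batch 6, at 502 CPM against 24.6 to 47.8. Of its 237 UMI there 133 were shared with Itgad, and without them it was at 220.2 CPM.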

How the results depend on the processing

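No member was called under any of the 18 alternatives of the test. Between 62 and 70 members were below 0, and their median log2 fold change lay from -0.95 to -0.50. The count over all genes was less steady: from 0 it went to 150 with DESeq2, 80 with no filter on low counts, 5 with batches as samples in edgeR, 6 in limma-voom with the animal as a random effect, and 1 without batch 7. Leaving out 1 animal in turn gave 7 to 100 genes, with the lone animal of a type assumed to vary like the others. The median of all genes then moved from 0.04 to between -0.30 and 0.58, and the members lay 0.50 to 1.45 below it. The cause of these moves was not tested. No paired analysis was possible because ChC and Pv cells came from different animals.

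The log2 ratio of the share moved by less than the spread between batches in all 7 sets and all alternatives. It kept its sign in 6 of them; for cytochrome c it went from 0.24 to -0.02 without batch 3. Shares in ChC moved by more than 1 SD with 1 transcript per gene, which lowers the total: all members to 2.05%, complex I to 0.58% and complex V to 0.628%. Without the member with most UMI in each complex, which takes its UMI out, they were 1.38% for all members, 0.455% for complex I, 0.117% for complex III and 0.451% for complex V; cytochrome c, with 1 member, gave no value. With cells thinned to 10000 UMI and those with fewer left out, the share of cells with a UMI was lower for Cox6a2, at 40.1% in ChC (from 60.9%) and 52.9% in Pv (from 71.8%), and for Cox7b2, at 17.2% in ChC and 5% in Pv; the part of depth and of the cells left out was not tested apart.

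Of 33 named genes 25 kept the sign of their log2 fold change in every alternative. Without batch 6 it became 0.82 for Sdhc, -0.28 for Cox7c, -0.19 for Atp5d and 0.63 for Cox6a2. Without batch 7 it became -0.14 for Cox7c and -0.09 for Atp5d, and without batch 3 -0.06 for Cycs. In limma-voom it was 0.09 for Sdhc, 0.03 for Sdha and -0.13 for Atp5d. Scaled to genes under 20 kb it was 0.00 for Sdhc and 0.09 for Sdha. Atp5d had -0.02 without TMM and -0.08 with cells of equal weight. Leaving out each animal in turn gave -0.10 to 0.47 for Ndufa8, -2.01 to 0.56 for Sdhc, -0.58 to 0.40 for Sdha, 0.23 to 0.63 for Cycs, -0.18 to 0.34 for Cox7c, -0.04 to 1.71 for Cox7b2, -0.28 to 0.35 for Atp5d and -2.46 to 0.73 for Cox6a2. The cause was not tested. Pvalb passed the threshold with DESeq2 and 3 other alternatives.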

Other observations

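Markers of several cell types were summed in each batch. The 9 interneuron genes summed to 7767, 9416, 7322 and 7848 CPM in ChC batches 1 to 4 and 7328, 6754, 3987 and 6202 in Pv batches 5 to 8. Batch 7 was the lowest. Of these genes 8 had a UMI and Vip was at 0. Erbb4 was the most abundant in all, in each ChC batch and in Pv batch 7. Slc32a1 was the highest in Pv batches 5 and 8, at 2996 and 1989 CPM, and Gad1 in batch 6, at 2498. The 6 pyramidal neuron genes summed to 44.8, 469, 57.4 and 816 CPM in ChC batches 1 to 4 and 491, 972, 1289 and 149 in Pv batches 5 to 8. Camk2a was the most abundant and Neurod6 and Tbr1 were at 0 in all cells. The 6 astrocyte genes summed to 21.3, 121, 112 and 322 CPM in ChC batches 1 to 4 and 78.8, 44.5, 303 and 252 in Pv batches 5 to 8, with Slc1a3 the most abundant in all, Aldoc the highest in each Pv batch and Gfap at 0. The 6 oligodendrocyte genes summed to 14.9, 9.55, 133 and 200.4 CPM in ChC batches 1 to 4 and 34.8, 256, 205 and 97.5 in Pv batches 5 to 8, with Mbp the most abundant in all and Mobp and Mag at 0; the sum of batch 6 is nearly all Cnp, at 254 CPM, with Mbp at 0. The 6 endothelial and mural genes summed to 12.8, 15.9, 5.31 and 14.3 CPM in ChC batches 1 to 4 and 6.95, 16.9, 162 and 109.8 in Pv batches 5 to 8, with Rgs5 the most abundant in all and Cldn5 at 0; in batch 7 Slco1c1, at 72.9 CPM, and Pdgfrb, at 59.2, made up most of the sum. The part of any of these in the member shares was not tested.

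Of the 4 Y-linked genes, Kdm5d had 0, 1, 71 and 1 UMI in ChC batches 1 to 4 and 0, 25, 1 and 0 in Pv batches 5 to 8. Scaled, this is 52.9 CPM in batch 6, the batch without Xist, and 23.6 in batch 3. The other Y-linked genes did not set batch 6 apart: Ddx3y had 8, 5, 53 and 19 UMI in ChC and 11, 4, 5 and 14 in Pv batches, Uty 3, 9, 58 and 20 and 6, 5, 11 and 5, and Eif2s3y 2 in all, both in batch 3.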
